A study of Mus musculus with 11 samples.

Results

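The genes described here are 7 markers of the upper hair follicle, *Plet1*, *Lrig1*, *Lgr6*, *Gata6*, *Defb6*, *Cst6* and *Klk10*. They were taken by name from the 55536 Ensembl genes counted in each library, and all 7 were among the 20307 genes that passed the filter on low counts. RNA was sequenced from 4 populations of epidermal cells sorted from the dorsal skin (EBS) of male C57Bl6/N mice that carried CD4Cre and R26-tdT, at 29 or 32 weeks of age. In these mice a Cre driven by *Cd4* control sequences switches on the red reporter tdT permanently, so that tdT+ cells are those in which this Cre was active at some time in the cell or its ancestors, T cells included. Cells were gated on CD49f, the integrin subunit of basal keratinocytes, on CD34, a surface marker of bulge stem cells, and on SCA-1, a surface antigen of the basal interfollicular epidermis (BL-IFE) and the infundibulum (INF). The groups were tdT+CD49f+CD34+ (3 libraries), tdTneg CD49f+CD34+ (3 libraries), tdT+CD49f+CD34+SCA-1+ (3 libraries) and tdTneg CD49f+CD34+SCA-1+ (2 libraries), in which the first 2 were SCA-1neg. They are called tdT+ or tdTneg CD34+ and tdT+ or tdTneg SCA-1+ cells below. Each library held the cells of 2 mice. All mice carried both alleles, and all libraries came from CD34-gated cells, so that no group stands for the whole upper follicle.

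From bottom to top, the upper part of the resting hair follicle consists of the bulge, the isthmus with the junctional zone (JZ) where the sebaceous gland joins, and the INF, which opens into the interfollicular epidermis. PLET1, LRIG1 and LGR6 mark stem and progenitor cells of the isthmus and JZ, and GATA6 is a transcription factor of the JZ and the sebaceous duct. The remaining members code for secreted proteins of the duct, the INF and the differentiating layers, namely a beta-defensin, an inhibitor of cysteine proteases and a serine protease of the kallikrein family.

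In the annotation used for the counts (GRCm38, Ensembl 96), all 7 are protein coding. *Plet1* lies at chr9:50494525-50505482 on the plus strand, *Lrig1* at chr6:94604529-94700158 on the minus strand and *Lgr6* at chr1:134983301-135105276 on the minus strand. *Defb6* lies at chr8:19225478-19228209 on the plus strand, *Cst6* at chr19:5344705-5349574 on the minus strand and *Klk10* at chr7:43781035-43785410 on the plus strand. With *Gata6* on an autosome of its own, the 7 genes are on 7 different chromosomes. 4 of them overlap a gene on the opposite strand, and the strand setting of the counting is not stated, so reads of the partners cannot be told apart there. Counts per library were 2176 to 6158 for *Plet1* and 28 to 137 for its partner *Plet1os*, and 2890 to 12922 for *Lrig1* and 114 to 462 for *Slc25a26*. For *Gata6* they were 429 to 1436, with 4 to 63 for *1010001N08Rik*. *Klk10*, with 168 to 888 counts, came closest to its partner *2310002F09Rik*, which had 8 to 183.

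RefSeq promoters, from 250 bases before to 50 bases after the gene start on GRCm38.p6, were at hand for 5 of the 7 members and are not shown for *Gata6* and *Cst6*. Those of *Plet1*, *Defb6* and *Klk10* are printed to set *Klk10*, which was called between populations, beside *Plet1* and *Defb6*, which edgeR called in no comparison, and each is written 5′ to 3′ on the strand of the gene. Capitals mark matches, searched on both strands, to the GATA motif AGATAA, the AP-1 motif TGANTCA and the TATA box TATAAA. They lie at chr9:50494275-50494574 (plus strand), chr8:19225228-19225527 (plus strand) and chr7:43780804-43781103 (plus strand).
Plet1: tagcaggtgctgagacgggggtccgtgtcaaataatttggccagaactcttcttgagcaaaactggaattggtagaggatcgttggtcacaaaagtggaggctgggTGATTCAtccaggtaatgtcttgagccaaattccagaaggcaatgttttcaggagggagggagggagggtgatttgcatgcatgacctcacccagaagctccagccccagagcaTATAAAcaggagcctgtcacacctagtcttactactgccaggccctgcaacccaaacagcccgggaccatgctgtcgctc
Defb6: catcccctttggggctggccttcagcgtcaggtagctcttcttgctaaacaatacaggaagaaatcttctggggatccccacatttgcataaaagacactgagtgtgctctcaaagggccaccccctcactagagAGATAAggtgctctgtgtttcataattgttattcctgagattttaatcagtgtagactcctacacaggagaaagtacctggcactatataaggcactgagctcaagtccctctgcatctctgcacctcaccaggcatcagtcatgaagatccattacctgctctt
Klk10: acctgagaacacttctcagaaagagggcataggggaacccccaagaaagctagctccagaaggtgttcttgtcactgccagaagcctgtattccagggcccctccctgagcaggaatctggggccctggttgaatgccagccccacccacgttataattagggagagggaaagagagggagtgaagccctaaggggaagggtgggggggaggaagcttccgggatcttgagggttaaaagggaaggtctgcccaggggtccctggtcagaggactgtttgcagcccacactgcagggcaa
*Plet1* had 1 AP-1 match starting at base -144 and 1 TATA box at base -30 relative to the gene start. *Defb6* had 1 GATA match at base -115, whereas *Klk10*, *Lrig1* and *Lgr6* had no match to these letters. Of 32851 promoters of this length, 11.2% held AGATAA, 7.81% TGANTCA and 13.6% TATAAA, so that such matches are common.

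Before the members, the libraries and the sort were checked. Between 17409131 and 46542177 reads were counted per library, and values below are CPM, counts scaled to a common library total with TMM normalization. *Cd34* was lower and *Ly6a*, which codes for SCA-1, was higher in all SCA-1+ than in all CD34+ libraries. *Itga6*, which codes for CD49f, was at 387 to 615 CPM in CD34+ and 932 to 1276 CPM in SCA-1+ libraries, though both were gated as CD49f+. *Ly6a* was uneven between the CD34+ groups, at 27.6, 59.2 and 9.64 CPM in tdT+ and 5.74, 2.46 and 2.90 CPM in tdTneg libraries without overlap, though the difference was not called (log2 fold change 3.11, adjusted p = 0.174 in edgeR). *Cd34* was also uneven between the SCA-1+ groups, at 22.3 to 35.7 CPM in tdT+ and 320 to 383 CPM in tdTneg libraries (log2 fold change -3.68, adjusted p = 0.000776 in edgeR), and 5 of 9 bulge markers were called lower in tdT+ than in tdTneg SCA-1+ cells. A row outside the Ensembl genes held 133 to 307 CPM in 5 of the 6 tdT+ libraries and 2.54 to 4.89 CPM in the tdTneg libraries. In the library labelled tdT+ CD34+ replicate 2 it held 2.05 CPM, so every comparison with this library was also made without it. All 9 bulge markers were called lower in SCA-1+ than in CD34+ cells (median log2 fold change -2.72). Called higher were 4 of 7 suprabasal, 3 of 7 basal epidermis (median 0.65) and 7 of 8 leukocyte markers. Over all genes, 11.6% were called in this comparison, 4.77% as higher. The bulge list holds *Cd34* and the basal list *Ly6a* and *Itga6*, which are genes of the sort. In bulk RNA, fewer cells of a type and less RNA per cell cannot be told apart.

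Across the 7 genes, edgeR called differences for *Cst6* and *Klk10* and for none of *Plet1*, *Lrig1*, *Lgr6*, *Gata6* and *Defb6*. The mean was lowest in tdTneg CD34+ cells for *Plet1*, *Gata6*, *Defb6*, *Cst6* and *Klk10*. For *Gata6* and *Cst6* every library of the other 3 groups lay above those of tdTneg CD34+ cells, for *Defb6* all but 1 did, and for *Plet1* and *Klk10* the tdT+ CD34+ libraries overlapped them, as did 1 tdT+ SCA-1+ library for *Plet1*. The shares of all genes with their lowest mean in that group, or with all other libraries above it, were not counted. Neither arrangement can therefore be read as particular to the members. *Klk10* was low in both CD34+ groups and 3.26-fold higher in SCA-1+ cells with tdT and 4.25-fold higher in those without. Levels can be compared between genes only per transcript length. On the scale of CPM per kilobase of the principal transcript, averaged over the 4 groups, the order was *Defb6* (381), *Plet1* (109), *Lrig1* (50.9), *Cst6* (46.2), *Lgr6* (33.0), *Klk10* (14.9) and *Gata6* (10.98). The order was not the same in every group, since *Cst6* was above *Lrig1* in tdT+ CD34+ (53.6 and 49.8) and tdTneg SCA-1+ cells (66.4 and 44.6), *Cst6* was below *Lgr6* in tdTneg CD34+ cells (18.2 and 31.2), and *Gata6* was above *Klk10* in tdT+ CD34+ cells (15.2 and 7.22). The last depends on the length used. Per kilobase of all exons of the gene, *Gata6* and *Klk10* were at 7.56 and 7.22 in tdT+ CD34+ cells. The *Defb6* transcript has only 323 bases, the shortest of the 7.

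**Figure D1:**
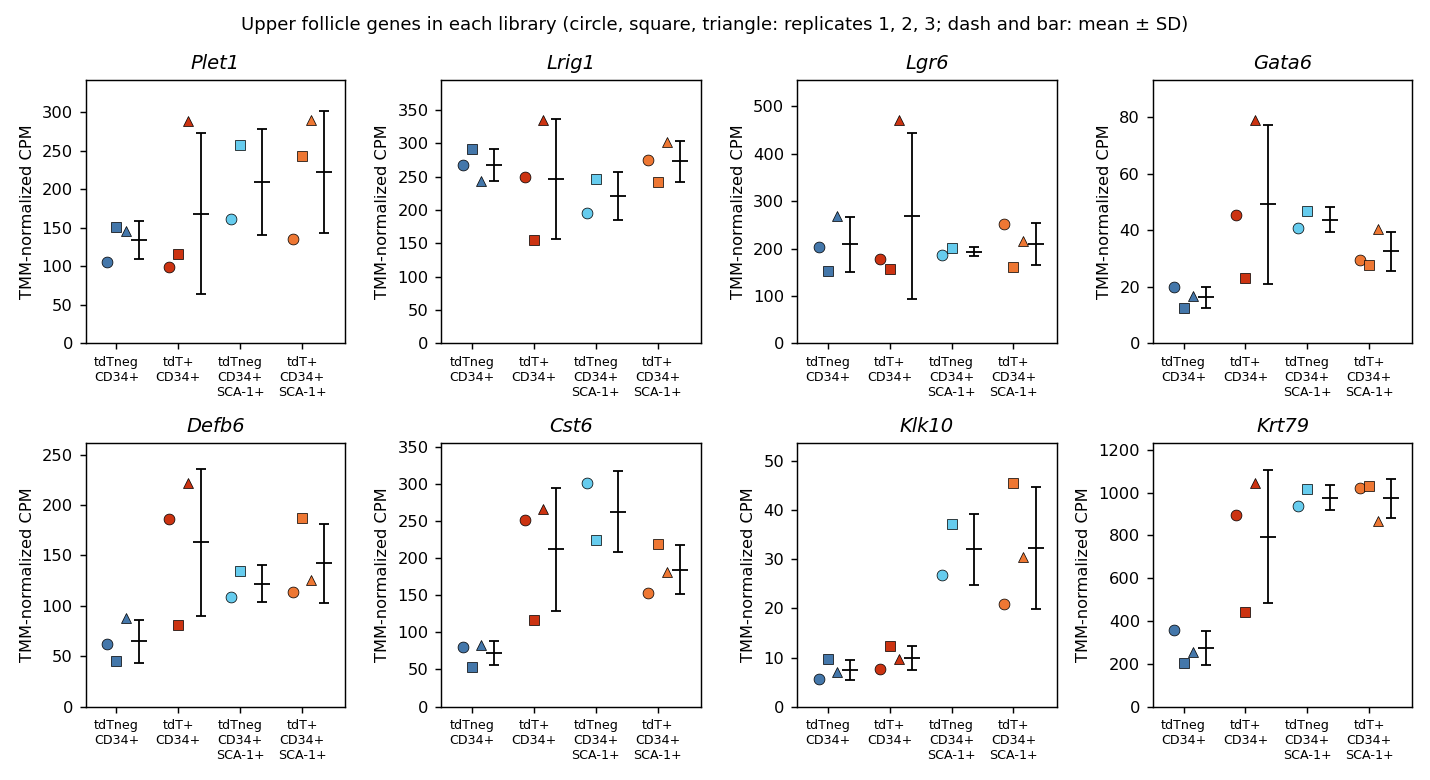
TMM-normalized CPM (vertical axes, linear, from 0) of the 7 genes and of *Krt79* in each of the 11 libraries, by sorted group, with dashes and bars for the group mean ± SD. *Lrig1* and *Lgr6* overlap in all 4 groups, the means of *Plet1*, *Gata6*, *Defb6*, *Cst6*, *Klk10* and *Krt79* are lowest in tdTneg CD34+ cells, and *Klk10* lies at 5.72 to 12.4 CPM in all CD34+ and at 20.9 to 45.5 CPM in all SCA-1+ libraries. The share of all genes with their lowest mean in tdTneg CD34+ cells was not counted.

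*Plet1* codes for a GPI-anchored surface protein, also known as the MTS24 antigen, of isthmus keratinocytes. Its CPM was 99.3, 117 and 288 in tdT+ CD34+, 105, 151 and 146 in tdTneg CD34+, 135, 243 and 290 in tdT+ SCA-1+ and 161 and 258 in tdTneg SCA-1+ cells. The group means were in the order tdT+ SCA-1+ (223 ± 79.4, SD, n = 3), tdTneg SCA-1+ (209 ± 68.5, n = 2), tdT+ CD34+ (168 ± 105, n = 3) and tdTneg CD34+ (134 ± 25.02, n = 3), and no neighbours in this order differed beyond their spread. The tdT+ CD34+ group was split, since replicate 3 was as high as the highest SCA-1+ library while replicates 1 and 2 lay within or below the range of tdTneg CD34+ cells. Between SCA-1+ and CD34+ cells, averaged over tdT status, the log2 fold change of *Plet1* was 0.53 (95% confidence interval -0.17 to 1.22, adjusted p = 0.264 in edgeR). With the replicate number as a block it was 0.67 (adjusted p = 0.0410) and without tdT+ CD34+ replicate 3 it was 0.84 (0.0336), both under the fold threshold.

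*Lrig1*, a transmembrane protein that restrains signaling of the EGF receptor family, was the most even of the 7. In tdT+ CD34+ cells it was at 250, 155 and 335 CPM, in tdTneg CD34+ cells at 267, 291 and 243 CPM, in tdT+ SCA-1+ cells at 276, 242 and 302 CPM and in tdTneg SCA-1+ cells at 195 and 246 CPM. The 4 ranges overlapped, and the difference between SCA-1+ and CD34+ cells was -0.06 on the log2 scale (95% confidence interval -0.47 to 0.34). That interval leaves out a change of 2-fold in either direction. Of 6 LRIG family members and receptor genes tested alongside, *Egfr* alone was called, and it was lower in SCA-1+ cells (log2 fold change -1.12). Without tdT+ CD34+ replicate 1 *Egfr* was no longer called.

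*Lgr6* codes for a receptor of R-spondins, secreted ligands that raise WNT signaling. It was measured at 179, 157 and 471 CPM in tdT+ CD34+, 204, 153 and 269 CPM in tdTneg CD34+, 251, 162 and 216 CPM in tdT+ SCA-1+ and 186 and 201 CPM in tdTneg SCA-1+ cells. Replicate 3 of the tdT+ CD34+ cells was the highest library, and the 4 groups overlapped. The log2 fold change between SCA-1+ and CD34+ cells was -0.23 (95% confidence interval -0.89 to 0.42, adjusted p = 0.620 in edgeR). The 2 related receptors were called lower in SCA-1+ cells, with log2 fold changes of -1.60 for *Lgr4* and -3.09 for *Lgr5*, the receptor of bulge and germ stem cells. Among the 7 R-spondin pathway genes tested besides *Lgr6*, the ligand *Rspo3* was the only one called higher (log2 fold change 3.59). Its levels were low, at 0.244 to 2.95 CPM in CD34+ and 3.56 to 12.9 CPM in SCA-1+ libraries. Whether *Lgr6* and *Lgr5* changed unequally was not tested.

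*Gata6* lies at chr18:11052064-11085635 on the plus strand and ranged from 12.5 to 79.1 CPM. The values were 45.5, 23.0 and 79.1 CPM in tdT+ CD34+ and 19.9, 12.5 and 16.7 CPM in tdTneg CD34+ cells, without overlap. In tdT+ SCA-1+ cells they were 29.4, 27.8 and 40.6 CPM, just below the 40.8 and 46.9 CPM of tdTneg SCA-1+ cells. The order of the means was tdT+ CD34+ (49.2 ± 28.3, SD, n = 3), tdTneg SCA-1+ (43.8 ± 4.28, n = 2), tdT+ SCA-1+ (32.6 ± 6.97, n = 3) and tdTneg CD34+ (16.4 ± 3.7, n = 3), in which tdT+ CD34+ cells overlapped both SCA-1+ groups. Of 3 other GATA factors tested, *Gata3*, a regulator of INF and inner root sheath fate, was called higher in SCA-1+ cells (log2 fold change 1.23), a call that was lost without tdTneg SCA-1+ replicate 1.

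*Defb6*, a beta-defensin with antimicrobial activity, was found at 186, 80.8 and 221 CPM in tdT+ CD34+, 61.8, 45.1 and 87.7 CPM in tdTneg CD34+, 114, 187 and 125 CPM in tdT+ SCA-1+ and 109 and 135 CPM in tdTneg SCA-1+ cells. The library labelled tdT+ CD34+ replicate 2 fell within the tdTneg CD34+ range, and the other 7 libraries outside that group lay above it. Beta-defensins form a cluster of related copies, and how the counting treated reads that map to several places is not stated. Of 6 other antimicrobial genes tested, *Defb1* (log2 fold change 1.41) and *S100a9* (1.72) were called higher and *Lcn2* (-5.63) lower in SCA-1+ cells. *Lcn2* was split within CD34+ cells, at 257, 305 and 597 CPM in 3 libraries and at 0.937, 3.66 and 4.50 CPM in the other 3, which lay within the 0.666 to 7.15 CPM of SCA-1+ cells. This count of 3 fell to 1 when any of 5 libraries was left out, namely tdT+ CD34+ replicate 2, tdT+ SCA-1+ replicates 1 and 2 and both tdTneg SCA-1+ libraries.

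*Cst6* codes for cystatin M/E, which inhibits the cysteine proteases cathepsin L and legumain in the upper follicle and the granular layer. It was at 252, 117 and 266 CPM in tdT+ CD34+ and at 80.3, 53.0 and 82.7 CPM in tdTneg CD34+ cells. In SCA-1+ cells the values were 153, 219 and 181 CPM with tdT and 301 and 224 CPM without. All 8 libraries of the other 3 groups therefore lay above the highest tdTneg CD34+ library, an arrangement whose share over all genes was not counted. In order, the means were tdTneg SCA-1+ (262 ± 54.3, SD, n = 2), tdT+ CD34+ (212 ± 82.3, n = 3), tdT+ SCA-1+ (184 ± 33.2, n = 3) and tdTneg CD34+ (72.0 ± 16.5, n = 3). Neighbours among the first 3 overlapped, whereas the tdTneg and tdT+ SCA-1+ libraries did not overlap. Of the targets of this inhibitor, *Ctsl* was called lower in SCA-1+ cells (log2 fold change -1.10) and *Lgmn* was not (0.62, adjusted p = 0.231 in edgeR). *Tgm3*, the transglutaminase that cathepsin L activates, was called higher (3.21), and neither *Ctsl* nor *Tgm3* was called without tdT+ CD34+ replicate 1 or tdTneg SCA-1+ replicate 1. Leaving out any of 4 others (tdTneg CD34+ replicates 2 and 3, tdT+ SCA-1+ replicate 2 and tdTneg SCA-1+ replicate 2) kept 1 of the 5 cystatin and target genes called instead of 2.

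*Klk10*, a kallikrein-related serine protease, had the clearest difference. Its CPM was 7.61, 12.4 and 9.75 in tdT+ CD34+ and 5.72, 9.75 and 7.15 in tdTneg CD34+ cells, against 20.9, 45.5 and 30.6 in tdT+ SCA-1+ and 26.9 and 37.2 in tdTneg SCA-1+ cells. Every SCA-1+ library lay above every CD34+ library, and within each population the tdT+ and tdTneg libraries overlapped. The means were 32.3 ± 12.4 (SD, n = 3) for tdT+ and 32.0 ± 7.28 (n = 2) for tdTneg SCA-1+ cells and 9.91 ± 2.38 (n = 3) for tdT+ and 7.54 ± 2.04 (n = 3) for tdTneg CD34+ cells.

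The comparison of SCA-1+ with CD34+ cells asks where the SCA-1+ sort lies relative to the bulge. *Klk10* was the 1 member called, with a log2 fold change of 1.90 (95% confidence interval 1.35 to 2.45, adjusted p = 0.000848, edgeR's quasi-likelihood test). Over all genes tested, 11.6% were called in this comparison, 4.77% as higher, so that 1 of 7 is near the background. The median log2 fold change of the 7 was 0.41, against -0.09 over all genes. *Cst6* passed the adjusted p but not the fold (log2 fold change 0.83, adjusted p = 0.0307 in edgeR), and its adjusted p rose above 0.05 without tdTneg CD34+ replicate 2, tdT+ SCA-1+ replicates 2 or 3, or tdTneg SCA-1+ replicate 1. The libraries of *Klk10* were also the only ones among the members that did not overlap between the 5 SCA-1+ and 6 CD34+ libraries. Of all genes, 5.1% were higher in SCA-1+ cells without overlap. The summed suprabasal markers were also higher, at 3241 to 10649 CPM in SCA-1+ and 513 to 4379 CPM in CD34+ libraries, and leukocyte markers summed to 370 to 603 and 10.1 to 234 CPM. Of these markers *Tyrobp* alone was at 0 in any library, tdT+ CD34+ replicate 3, and the part of these cells in the members' values was not tested.

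Within tdTneg cells, *Cst6* and *Klk10* were called higher in SCA-1+ cells. *Cst6* rose 3.64-fold (log2 fold change 1.86, SE 0.34, adjusted p = 0.0147 in edgeR) and *Klk10* rose 4.25-fold (2.09, SE 0.36, adjusted p = 0.0130). These were 2 of 7, with 4.74% of all genes called and 3.29% called higher. *Gata6* had a log2 fold change of 1.42 (SE 0.41) with an adjusted p of 0.0781 in edgeR, and with the replicate number as a block it was called (1.66, adjusted p = 0.0340). It was also called by DESeq2 (adjusted p = 0.00474), under filters asking 1 count in any library (0.0164) or 10 counts in every library (0.0313), and with only the groups compared (0.0196), where 2162, 1410, 1167 and 1452 genes were called in all against 963. For *Plet1*, *Gata6*, *Defb6*, *Cst6* and *Klk10*, both SCA-1+ libraries lay above the 3 CD34+ libraries, where 19.9% of all genes did so. These calls changed with single libraries. *Cst6* was lost without tdTneg CD34+ replicate 3 (adjusted p = 0.0540) or tdTneg SCA-1+ replicate 1 (0.138), and *Klk10* without tdTneg CD34+ replicate 3 (0.0611) or either SCA-1+ library (0.0730 and 0.0726 without replicates 1 and 2). *Gata6* was called without tdT+ CD34+ replicate 2 (0.0225) or replicate 3 (0.0265). The endothelial markers moved the same way, with sums of 1310 to 1414 CPM in tdTneg SCA-1+ and 23.2 to 80.3 CPM in tdTneg CD34+ libraries, as did the leukocyte markers (370 to 436 and 10.1 to 52.8 CPM) and the suprabasal markers (3241 to 7556 and 513 to 1799 CPM, 3 of 7 called higher), and their part in these values was not tested.

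Within tdT+ cells, *Klk10* was called with a 3.26-fold rise in SCA-1+ cells (log2 fold change 1.70, SE 0.34, adjusted p = 0.0103 in edgeR), the 1 of 7 members, against 8.45% of all genes called and 2.91% called higher. It was called in each of the fits without 1 library. Suprabasal markers summed to 7553 to 10649 CPM in tdT+ SCA-1+ and 1733 to 4379 CPM in tdT+ CD34+ libraries, and leukocyte markers to 409 to 603 and 70.9 to 234 CPM, and their part in the *Klk10* values was not tested. *Gata6* (-0.59), *Defb6* (-0.20) and *Cst6* (-0.20) had log2 fold changes below 0 that were not called, and without tdT+ CD34+ replicate 2 they were -0.94, -0.52 and -0.49. Without tdT+ CD34+ replicate 3 they were -0.072, 0.0868 and -0.0027, so that these values were near 0 without that library. The comparison within tdT+ cells and that within tdTneg cells share no library.

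**Figure D2:**
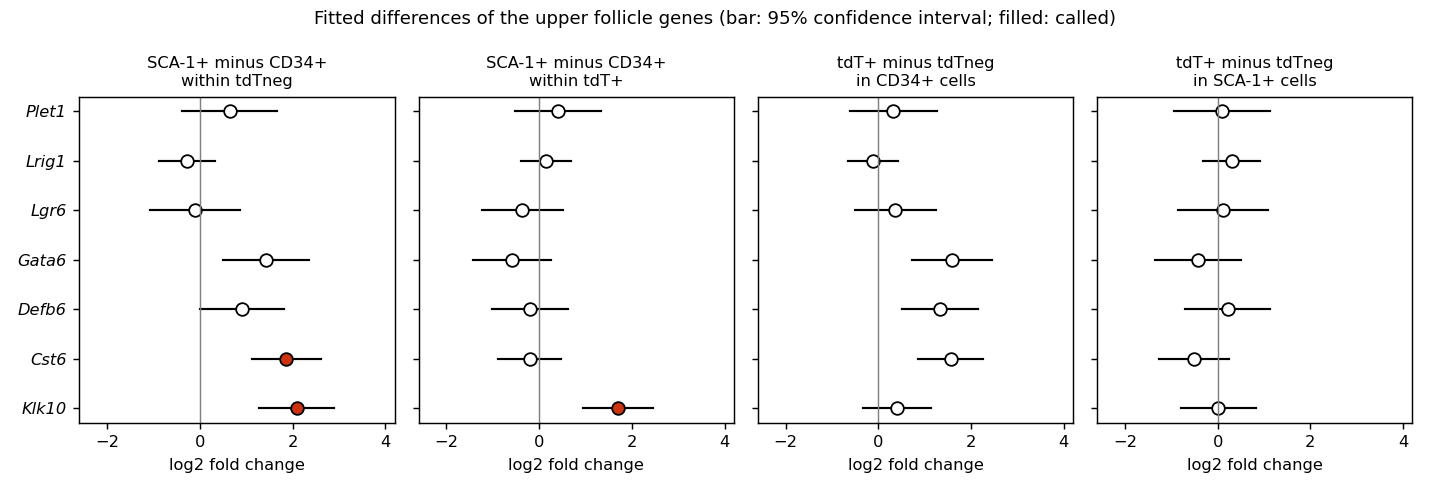
Fitted log2 fold changes (horizontal axes) of the 7 genes with 95% confidence intervals, for SCA-1+ minus CD34+ cells within tdTneg and within tdT+ cells and for tdT+ minus tdTneg cells in each population, with filled circles for called genes. *Klk10* is called in both comparisons of populations and *Cst6* only within tdTneg cells, and none of the 14 values between tdT+ and tdTneg cells is called.

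The comparison of tdT+ with tdTneg cells asks whether cells with a history of CD4Cre activity sit elsewhere along the follicle. In CD34+ cells, edgeR called none of the 7 members, against 0.00985% (2) of all genes. At an unadjusted p under 0.05, 3 of the 7 passed, where 8.42% of all genes did. These were *Gata6* (log2 fold change 1.59, SE 0.38, adjusted p = 0.241), *Defb6* (1.33, SE 0.37, adjusted p = 0.352) and *Cst6* (1.56, SE 0.31, adjusted p = 0.177), and DESeq2 called the same 3 among 377 genes. The 3 tdT+ libraries lay above the 3 tdTneg libraries for *Gata6* and *Cst6*, as for 5.07% of all genes, whereas *Defb6* overlapped. When the fit left out the library labelled tdT+ CD34+ replicate 2, the log2 fold changes were 1.93, 1.65 and 1.85 in the same order, and none was called by edgeR. Over all fits without 1 library, the lowest log2 fold changes were 1.07 for *Gata6*, 1.04 for *Defb6* and 1.36 for *Cst6*. The summed suprabasal markers moved the same way, at 1733 to 4379 CPM in tdT+ and 513 to 1799 CPM in tdTneg CD34+ cells, as did the leukocyte markers (70.9 to 234 and 10.1 to 52.8 CPM). Of 9 bulge markers, 2 had a log2 fold change above 0, the median was -0.49 and none was called. Their sums overlapped, at 12098 to 19074 CPM in tdT+ and 16902 to 23504 CPM in tdTneg CD34+ libraries. The part of these cells in the members' values was not tested.

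In SCA-1+ cells, tdT+ and tdTneg libraries differed in none of the 7 members by edgeR or DESeq2, nor at an unadjusted p under 0.05, where 2.31% of all genes were called and 14.6% had such a p. The log2 fold changes ran from -0.51 for *Cst6* (95% confidence interval -1.26 to 0.24) to 0.31 for *Lrig1* (-0.31 to 0.92). For *Klk10* the value was 0.01 (-0.80 to 0.82). In both *Gata6* and *Cst6* the 3 tdT+ libraries lay below the 2 tdTneg libraries, as for 17.2% of all genes. The 4 endothelial markers summed to 1310 to 1414 CPM in tdTneg SCA-1+ libraries and to 25.6 to 49.8 CPM in tdT+ SCA-1+ libraries, and leukocyte markers to 370 to 436 and 409 to 603 CPM. Within the leukocyte list, 3 of 8 genes were called higher in tdT+ SCA-1+ cells, and T cell genes were further apart than the sum, with *Cd3e* at 47.1 to 117 CPM in tdT+ and 9.78 to 12.6 CPM in tdTneg libraries and *Trac* at 15.5 to 35.3 and 1.34 to 1.61 CPM. *Cd74* was at 94.5 to 164 CPM in tdT+ and 284 to 327 CPM in tdTneg libraries. The part of these cells in the members' values was not tested.

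The effect of tdT in SCA-1+ cells minus that in CD34+ cells was -2.07 on the log2 scale for *Cst6* (SE 0.45, adjusted p = 0.0911 in edgeR) and -2.01 for *Gata6* (SE 0.56, adjusted p = 0.175). edgeR called none of the 7 (0.389% of all genes), 2 passed at an unadjusted p under 0.05 (12.4% of all genes), and DESeq2 called these 2 among 845 genes. In the fit that left out the library labelled tdT+ CD34+ replicate 2, *Cst6* was called (-2.36, adjusted p = 0.0253) and *Gata6* was not (-2.36, adjusted p = 0.0639). It was the only 1 of the 11 fits without 1 library that called *Cst6*. Over these fits the values ran from -2.36 to -1.82 for *Cst6* and from -2.36 to -1.49 for *Gata6*. For these 2 members all tdT+ libraries were higher in CD34+ and lower in SCA-1+ cells, an arrangement found in 0.63% of all genes. That share was counted only in the direction these members showed. Their profiles were alike (Pearson's r = 0.90), so they are not 2 separate cases. In the same difference of effects, all 4 endothelial (median -6.55), all 7 suprabasal (median -1.14) and all 4 fibroblast markers (median -1.40) lay below 0 with none called. *Ly6a* was also below 0 and not called (-2.95, adjusted p = 0.181 in edgeR). Of 9 bulge markers, 1 lay above 0 (median -1.47) and 1 was called lower, whereas 6 of 7 basal epidermis markers lay above 0. The part of these cells in the members' values was not tested. The other 5 members had values between -1.11 (*Defb6*) and 0.42 (*Lrig1*), with none called.

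Likeness of profiles was described by Pearson's r of log2 CPM over the 11 libraries, which share the groups, the depth and the normalization. Among the members, *Gata6* and *Cst6* (r = 0.90), *Defb6* and *Cst6* (0.88) and *Gata6* and *Defb6* (0.85) were most alike. *Klk10* was less like *Cst6* (0.54), and *Lrig1* had r = -0.04 with *Cst6*. Among all genes tested, *Cst6* was most like *Krt79* (0.94), a keratin of the INF and the sebaceous duct, then *Acsl4* (0.93) and *Igf2bp2* (0.91). *Krt79* was also among the 3 genes most like *Defb6* (0.86), after *Cst6* itself and *Fbxo6* (0.86). The genes closest to *Gata6* were *Nebl* (0.94), *Acsl4* (0.91) and *Adgrl2* (0.91). For *Klk10* they were *Tes* (0.98), *Ets1* (0.96) and *Pip4k2a* (0.96). *Lgr6* was most like *Nsun6* (0.97), *Dyrk1a* (0.91) and *Cep126* (0.90), *Lrig1* most like *Fam234a* (0.90), *Gm25939* (0.88) and *1700017B05Rik* (0.87), and *Plet1* most like *Gm6977* (0.89), *Gapdh-ps14* (0.89) and *Nop9* (0.88). Of these, *Gm6977* (at most 1.32 CPM), *Gapdh-ps14* (at most 0.568 CPM) and *Gm25939* (at most 2.04 CPM) were barely counted.

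**Figure D3:**
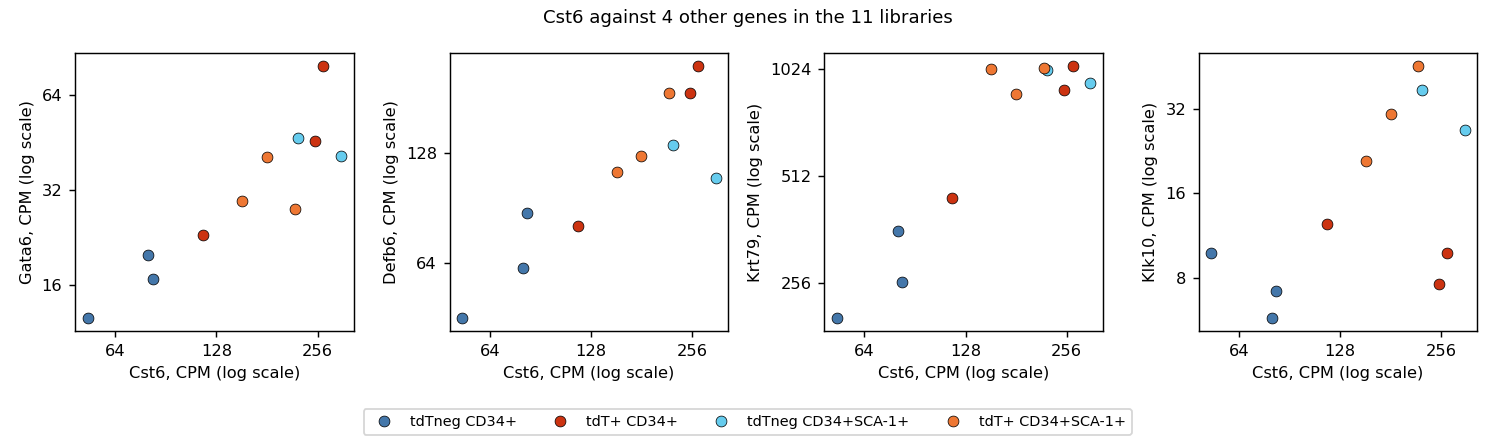
*Cst6* CPM (horizontal axes) against the CPM of *Gata6*, *Defb6*, *Krt79* and *Klk10* (vertical axes), both on log scales, with 1 point per library colored by group. The tdTneg CD34+ libraries lie at the lower left of the first 3 panels, whereas in the *Klk10* panel the tdT+ CD34+ libraries with 252 and 266 CPM of *Cst6* stay at 7.61 and 9.75 CPM.

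*Krt79* had its lowest mean in tdTneg CD34+ cells, with 895, 444 and 1043 CPM in tdT+ CD34+, 358, 203 and 257 CPM in tdTneg CD34+, 1022, 1031 and 869 CPM in tdT+ SCA-1+ and 937 and 1016 CPM in tdTneg SCA-1+ cells. It was called higher in SCA-1+ than in CD34+ cells within tdTneg cells (log2 fold change 1.84, adjusted p = 0.0153 in edgeR) and not within tdT+ cells (0.29, adjusted p = 0.552). Between tdT+ and tdTneg CD34+ cells its log2 fold change was 1.54 (adjusted p = 0.179). The library labelled tdT+ CD34+ replicate 2 was again the nearest to tdTneg CD34+ cells. Averaged over tdT status, *Krt79* was called higher and *Fst*, an activin inhibitor that is also a marker of the upper follicle, lower in SCA-1+ cells (log2 fold changes 1.07 and -1.38), and 1 of these 2 calls was lost without tdTneg CD34+ replicate 2 or tdTneg SCA-1+ replicate 1. Within tdT+ cells *Krt17* and *Fst* were called lower in SCA-1+ cells (log2 fold changes -1.43 and -1.70), while *Prdm1* (-1.05) and *Atp6v1c2* (0.25) were not called. At least 1 of these 2 calls was lost without tdT+ CD34+ replicates 1 or 3 or any of the 3 tdT+ SCA-1+ libraries. Of 6 sebaceous gland genes, *Mgst1* was called lower in SCA-1+ cells averaged over tdT status (-1.94) and none higher, none was called within tdT+ or within tdTneg cells, and *Mgst1* is named because it was the only call. Averaged over tdT status, no sebaceous gland gene was called without tdT+ CD34+ replicates 1 or 2, tdTneg CD34+ replicates 2 or 3, tdT+ SCA-1+ replicates 1 or 3 or either tdTneg SCA-1+ library, and 3 were called without tdT+ CD34+ replicate 3.

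*Klk10* lies in a run of kallikrein genes on chromosome 7 that code for proteases of the cornifying layers. Of 9 others tested (8 kallikreins and *Spink5*, which codes for their inhibitor), 4 were called higher in SCA-1+ cells averaged over tdT status, *Klk7* (log2 fold change 1.28), *Klk8* (2.55), *Klk9* (3.19) and *Klk11* (2.75), and none lower. All 9 had a log2 fold change above 0, with a median of 1.51. *Klk8*, a kallikrein of the granular layer, was measured at 7.80, 10.8 and 7.22 CPM in tdT+ CD34+, 3.82, 2.83 and 3.76 CPM in tdTneg CD34+, 25.2, 55.3 and 29.3 CPM in tdT+ SCA-1+ and 30.0 and 25.7 CPM in tdTneg SCA-1+ cells. As for *Klk10*, no SCA-1+ library of *Klk8* overlapped a CD34+ library.

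*Klk7*, a protease that cleaves corneodesmosomes, differed from that profile. It was at 40.1, 47.5 and 47.0 CPM in tdT+ CD34+, 21.3, 19.5 and 21.6 CPM in tdTneg CD34+, 41.5, 76.2 and 67.6 CPM in tdT+ SCA-1+ and 82.7 and 96.05 CPM in tdTneg SCA-1+ cells, so that the tdT+ CD34+ and tdT+ SCA-1+ libraries overlapped. The test of the difference between the comparison within tdT+ and that within tdTneg cells gave -1.64 for *Klk7* (adjusted p = 0.0589 in edgeR) and -1.77 for *Klk11* (0.562), and called none of the 9 genes. *Klk9* lay between 0.055 and 1.77 CPM in CD34+ and between 4.34 and 6.39 CPM in SCA-1+ libraries. Within tdTneg cells *Klk7*, *Klk8* and *Klk11* were called, and within tdT+ cells *Klk8* was called by edgeR, against 3 of the list by DESeq2. Without tdT+ CD34+ replicate 2 or tdTneg CD34+ replicate 2, edgeR called 2 within tdT+ cells. *2310002F09Rik* on the opposite strand also overlaps *Klk8*, *Klk9*, *Klk11*, *Klk12* and *Klk13*.

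**Figure D4:**
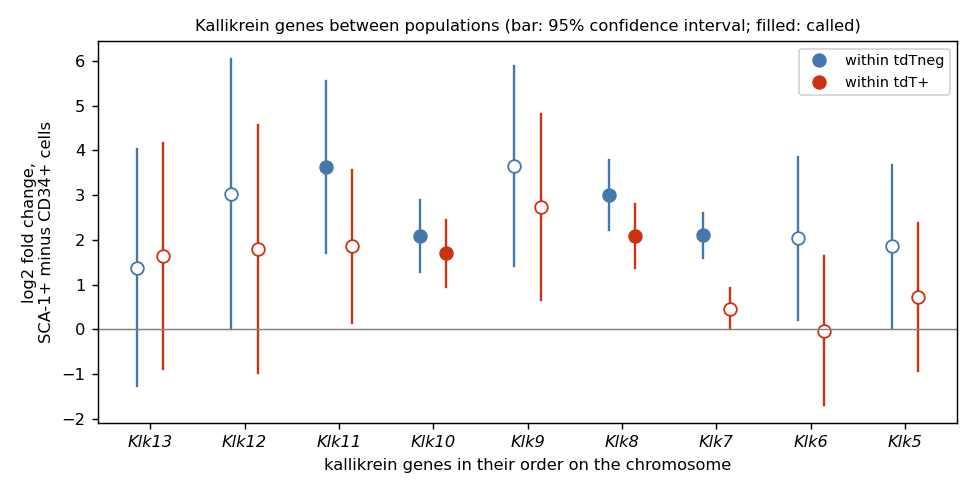
Log2 fold changes between SCA-1+ and CD34+ cells (vertical axis) with 95% confidence intervals for 9 kallikrein genes in their order on the chromosome, within tdTneg and within tdT+ cells, with filled circles for called genes. *Klk8* and *Klk10* are called in both, *Klk7* and *Klk11* are filled for tdTneg cells, and the intervals of *Klk12*, *Klk13*, *Klk5* and *Klk6* are wide.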

How the data were processed

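RNA was measured in 11 libraries, each from the cells of 2 mice. The authors aligned the reads with STAR to mm10 (Ensembl release 96) and counted them per gene with featureCounts, and the deposited values are whole-number counts without normalization. All 55536 gene IDs matched the annotation. 1 row outside the Ensembl genes, at most 0.031% of a library, stayed out of totals and tests.

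Counts were fitted in R 4.3.3 with edgeR 4.0.16 (TMM, filterByExpr, glmQLFit, glmQLFTest) on all 11 libraries with 1 mean per group. A gene was called when its Benjamini-Hochberg adjusted p over the 20307 genes tested was under 0.05 and its log2 fold change was beyond 1 in either direction, as in the study's methods, which name DESeq2. DESeq2 1.42.0 was run as an alternative. The common biological coefficient of variation was 0.608. CPM per kilobase used the principal transcript's length. Likeness used log2 CPM with a prior count of 2. Scripts were tested on simulated data.

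The replicate number was read as a shared pool of mice (replicate 1 at 29 weeks, 2 and 3 at 32 weeks). After subtraction of each group's mean, 15 same-numbered pairs correlated over genes with a median r of 0.08 (-0.42 to 0.59) and 30 differently numbered pairs with -0.02. Named genes were the 7 members, the genes of 15 context lists and, per member, the 3 most alike genes. Members and lists were chosen with earlier results of these data known. Counts over the list of other upper follicle genes are not reported here.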

Additional observations from a re-analysis of the deposited data

Results flagged for a closer look

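For 2 of the 7 genes all tdT+ libraries were higher in CD34+ cells and all tdT+ libraries were lower in SCA-1+ cells, as for 0.63% of all genes. That share covers only the direction these 2 genes showed, and their profiles were alike (Pearson's r = 0.90). The effect within SCA-1+ cells could not be told from 0 for either, at -0.43 for *Gata6* (95% confidence interval -1.35 to 0.50) and -0.51 for *Cst6* (-1.26 to 0.24). Measured as the effect in SCA-1+ minus the effect in CD34+ cells, the difference was -2.015 on the log2 scale for *Gata6* (adjusted p = 0.175 in edgeR) and -2.066 for *Cst6* (adjusted p = 0.0911), so the test of the difference passed the threshold for neither. The gap between the lowest tdTneg and the highest tdT+ SCA-1+ library of *Gata6* was small, 40.8 against 40.6 CPM.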

How the results depend on the processing

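Over 700 fits of the members (7 genes, each comparison under each alternative), 646 kept the direction and the side of the threshold, 5 lost a call, 19 gained one and 30 changed sign, none of these 30 in a called value. Without the fold threshold, 2 members (*Cst6* and *Klk10*) were called between populations instead of 1. Between tdT+ and tdTneg CD34+ cells, DESeq2 and a filter asking 1 count in any library each called 3 (*Gata6*, *Defb6*, *Cst6*) instead of 0, among 377 and 166 genes called in all instead of 2. For the difference between populations in the effect of tdT, the same 2 alternatives called 2 (*Gata6*, *Cst6*), among 845 and 568 genes instead of 79, and a filter asking 10 counts in every library called 1 (*Cst6*), among 263. The cause was not tested. RLE size factors moved the median of all genes by -0.116 in that difference, where *Cst6* was then at -2.18 and *Gata6* at -2.13, and neither was called.

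With the replicate number as a block, the log2 fold change of *Lgr6* within tdTneg cells was 0.19, and between tdT+ and tdTneg SCA-1+ cells those of *Plet1*, *Lgr6* and *Klk10* were -0.20, -0.14 and -0.0333. The block changed no call other than that of *Gata6* within tdTneg cells. In the same comparison of SCA-1+ cells *Klk10* was at -0.0127 under DESeq2, -0.0106 with RLE size factors, -0.0149 with only the groups compared, -0.0616 under the filter of 1 count and -0.0308 under that of 10 counts.

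Without 1 library, the members called were 1 to 1 between populations and within tdT+ cells, 0 to 3 within tdTneg cells, 0 to 0 for both tdT comparisons and 0 to 1 for the difference of effects. Over all genes the calls ran from 55 (without tdTneg SCA-1+ replicate 1) to 1300 (without tdT+ CD34+ replicate 3) within tdTneg cells, and from 1 (without tdTneg SCA-1+ replicate 2) to 376 (without tdT+ CD34+ replicate 3) for the difference of effects. Where at least 2 libraries stayed in each group, the calls over all genes ran from 267 to 700 between tdT+ and tdTneg SCA-1+ cells. Between populations, averaged over tdT status, they then ran from 1839 to 2510. Signs changed between populations for *Lrig1* (-0.19 to 0.0787) and *Lgr6* (-0.37 to 0.11), within tdT+ cells for *Lrig1* (-0.10 to 0.43), *Lgr6* (-0.63 to 0.32) and *Defb6* (-0.52 to 0.0868) and within tdTneg cells for *Lgr6* (-0.29 to 0.12). Between tdT+ and tdTneg CD34+ cells they changed for *Plet1* (-0.31 to 0.59), *Lrig1* (-0.40 to 0.13) and *Lgr6* (-0.31 to 0.64). In SCA-1+ cells they changed for *Plet1* (-0.22 to 0.42), *Lgr6* (-0.0339 to 0.22), *Defb6* (-0.0851 to 0.36) and *Klk10* (-0.37 to 0.25), and for the difference of effects for *Plet1* (-0.52 to 0.40) and *Lgr6* (-0.52 to 0.43). A group left with 1 library is assumed to vary like the others. For the low *Klk9*, *Klk12* and *Klk13*, depth limits the values.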
